A study of Mus musculus with 8 samples.

Results

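The platelet-derived growth factor (PDGF) family of a mouse epicardial cell line was described in cells with CRISPR/Cas9 directed at Hdac3 (KO) and in cells given an empty lentiviral vector (EV). Its 6 members, taken by gene name from the 35275 genes of the deposited count and FPKM tables, were the ligand genes Pdgfa, Pdgfb, Pdgfc and Pdgfd and the receptor genes Pdgfra and Pdgfrb. The epicardium is the cell sheet over the heart. Per the labels, 4 KO libraries were transduced with an Hdac3 guide RNA and 4 EV libraries with the vector alone, and all cells grew in high-glucose medium with fetal bovine serum. KO replicate 1 is an exception in its labels: its title says KO while its transduction field names the empty vector. Libraries were grouped by title, and every member was tested again without that library. The sources used here do not give whether the KO cells were a clone or a pool.

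PDGF ligands are secreted dimers that join a pair of receptor tyrosine kinases, PDGFRα and PDGFRβ, on the cell surface. The A, B and C chains bind PDGFRα, and the B and D chains bind PDGFRβ. The A and B chains are cut to their active form inside the cell, whereas the C and D chains leave it with a CUB domain that proteases outside the cell must remove. In the mouse heart, PDGFRα is known for its part in forming cardiac fibroblasts from the epicardium, and PDGFRβ for its part in forming coronary smooth muscle.

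Both receptor transcripts fell in KO. Pdgfra was 1.30-fold lower and Pdgfrb 1.35-fold lower. Among the ligands, Pdgfc, by far the most abundant, fell 1.11-fold, Pdgfb rose 1.37-fold, and neither Pdgfa nor Pdgfd passed the test. The test was edgeR's quasi-likelihood test of KO against EV with Benjamini-Hochberg adjustment over 12801 tested genes and a threshold of 0.05. All 6 members passed the filter on low counts. Of these, 1 rose and 3 fell, where 12.6% of all tested genes rose and 13.4% fell, 26.0% in all. With library totals in place of TMM scaling, 1039 genes rose and 2414 fell, against 1613 and 1711 with TMM. In 4 members the CPM values of the groups did not overlap, as was so for 26.5% of tested genes.

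The libraries held between 18063745 and 24564892 counts, and the first principal component (48.8% of the variance) separated KO from EV, with KO replicate 1 among the KO libraries. Hdac3 itself averaged 61.6 ± 3.23 CPM in KO and 61.9 ± 1.53 CPM in EV (SD, n = 4 each). A Cas9 edit need not lower a transcript, so this level does not check the labels. The epicardial genes Wt1 (263 CPM in KO, 341 CPM in EV), Tbx18 (16.9 CPM in KO, 16.1 CPM in EV), Tcf21 (60.1 CPM in KO, 100.1 CPM in EV) and Upk3b (1465 CPM in KO, 1858 CPM in EV) were all expressed. Aldh1a2, the retinoic acid synthase of epicardium, stayed under the filter at 0.251 CPM in KO and 0.407 CPM in EV, and Gata5 had 0 counts in all libraries. Nothing in the labels says that replicates were separate cultures, so p-values measure the spread between these libraries only.

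**Figure D1:**
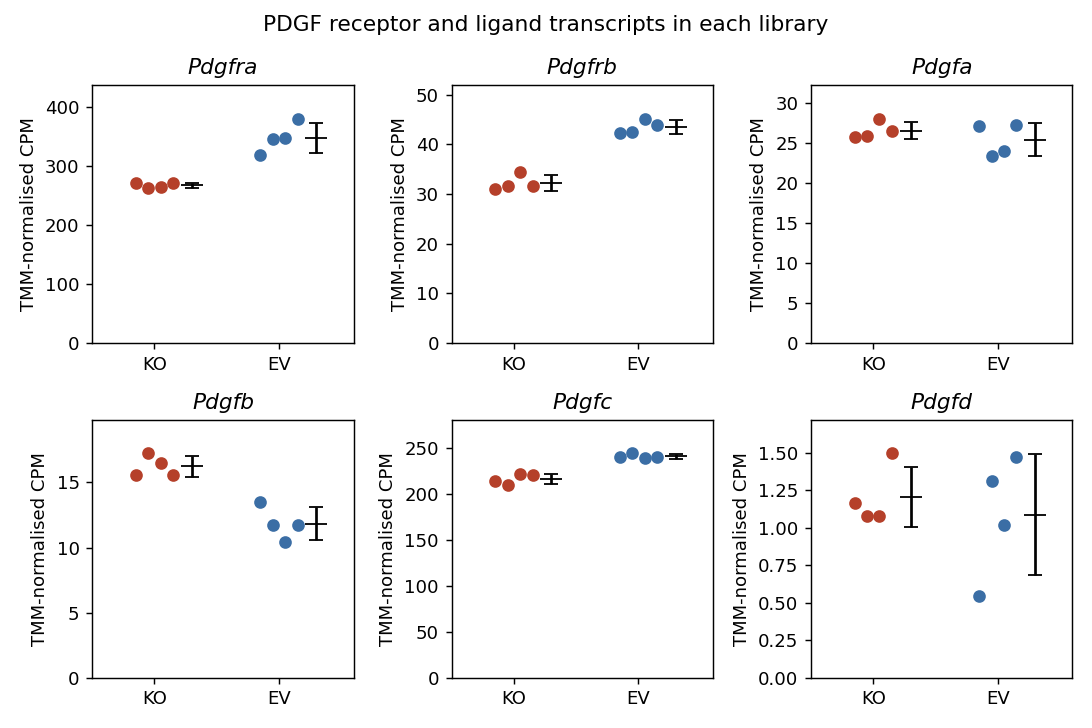
TMM-normalised CPM (counts relative to the library total, scaled for library composition) of each PDGF gene, with KO left of EV, one point per library and a bar for the mean ± SD of 4 libraries. The KO points lie below all EV points for Pdgfra, Pdgfrb and Pdgfc, above them for Pdgfb, and among them for Pdgfa and Pdgfd.

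Pdgfra, the receptor for the A, B and C chains, was the more abundant receptor. Its level was 271, 262, 264 and 271 CPM in KO replicates 1 to 4, against 318, 346, 347 and 380 CPM in EV replicates 1 to 4. The highest KO library lay 46.7 CPM under the lowest EV library. The EV libraries were the more spread, with EV replicate 4 high and EV replicate 1 low. The means were 267 ± 4.56 CPM in KO and 348 ± 25.4 CPM in EV (SD, n = 4 each). On the log2 scale the difference of KO from EV was −0.38 with SE 0.0494, at an adjusted p of 1.06e-05 in edgeR. Without EV replicate 4, the highest, the log2 fold change was −0.34. The two-sided exact permutation p was 0.0286, the smallest that 4 against 4 libraries can give. Among called genes, 61.4% had a smaller log2 fold change in absolute size.

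Pdgfrb, the receptor for the B and D chains, had a narrow spread in both groups. It stood at 31.0, 31.6, 34.5 and 31.7 CPM in KO replicates 1 to 4, against 42.4, 42.4, 45.2 and 43.9 CPM in EV replicates 1 to 4. Even KO replicate 3, the highest of its group, was 7.87 CPM below the lowest EV library. The means were 32.2 ± 1.55 CPM in KO and 43.5 ± 1.34 CPM in EV (SD, n = 4 each). The log2 difference was −0.43 with SE 0.0588, at an adjusted p of 1.83e-05 in edgeR. Its exact permutation p was again 0.0286. In bulk RNA, fewer cells that carry a transcript and less of it in each cell cannot be told apart.

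The proportion between the receptors overlapped between the groups. Levels of different genes are compared here in FPKM, the authors' counts per gene length and library total, which carry no correction for library composition. Pdgfra averaged 39.9 ± 0.642 FPKM in KO and 53.8 ± 4.16 FPKM in EV, and Pdgfrb 5.83 ± 0.270 FPKM in KO and 8.15 ± 0.235 FPKM in EV (SD, n = 4 each). The FPKM ratio of Pdgfra to Pdgfrb was between 6.31 and 7.21 in KO libraries and between 6.19 and 7.14 in EV libraries, so the ranges overlapped. Pdgfra made up 87.2 ± 0.655% of the summed receptor FPKM in KO and 86.8 ± 0.729% in EV (SD, n = 4 each). The summed receptor FPKM was 45.7 ± 0.487 in KO and 62.0 ± 4.30 in EV (SD, n = 4 each).

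Pdgfc encodes the C chain, a PDGFRα ligand, and ranked 1024 of the 12801 tested genes by mean FPKM. It stood at 213, 209, 221 and 220 CPM in KO replicates 1 to 4, against 239, 244, 239 and 239 CPM in EV replicates 1 to 4. The gap between the groups was 17.7 CPM, and the EV libraries were nearly level. The means were 216 ± 5.78 CPM in KO and 240 ± 2.28 CPM in EV (SD, n = 4 each). The log2 difference was −0.15 with SE 0.0409, at an adjusted p of 0.00860 in edgeR and an exact permutation p of 0.0286. This was a small difference beside others in the series: only 6.26% of called genes had a smaller one. Without KO replicates 2 and 3, the libraries with the most liver gene counts, the log2 fold change was −0.15 and the adjusted p 0.0616, on fewer libraries.

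Pdgfb encodes the B chain, the ligand that binds both receptors. It was at 15.6, 17.2, 16.5 and 15.6 CPM in KO replicates 1 to 4, against 13.5, 11.7, 10.4 and 11.7 CPM in EV replicates 1 to 4. Every KO library lay above every EV library, by 2.05 CPM or more. The means were 16.2 ± 0.797 CPM in KO and 11.8 ± 1.28 CPM in EV (SD, n = 4 each). The log2 difference was 0.46 with SE 0.0918, at an adjusted p of 0.000988 in edgeR and an exact permutation p of 0.0286. It was the 1 member that rose, against the direction of the receptors.

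Pdgfa, the A chain, did not differ detectably. It was at 25.7, 25.9, 28.1 and 26.5 CPM in KO replicates 1 to 4, against 27.1, 23.3, 24.0 and 27.2 CPM in EV replicates 1 to 4, and the groups overlapped. The log2 difference was 0.065 with SE 0.0714 (adjusted p = 0.546 in edgeR), with a 95% interval of the fold from 0.943 to 1.16. Part of the span of Pdgfa overlaps 6330403L08Rik on the opposite strand (10.1 CPM in KO, 8.30 CPM in EV). Whether reads were counted by strand is unknown, so reads in the overlap cannot be told apart.

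Pdgfd, the D chain, had the lowest level of the members. It held 22, 22, 25 and 36 counts in KO replicates 1 to 4, against 10, 30, 22 and 31 counts in EV replicates 1 to 4. EV replicate 1 was the lowest library and the groups overlapped. The means were 1.20 ± 0.199 CPM in KO and 1.09 ± 0.405 CPM in EV (SD, n = 4 each), where 3 counts correspond to between 0.125 and 0.164 CPM. The log2 difference of 0.13 with SE 0.289 (adjusted p = 0.771 in edgeR) had a 95% interval of the fold from 0.722 to 1.67, and without EV replicate 1 it was −0.071. At this depth a difference of that size was not detectable.

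The mix of ligand transcripts differed between the groups. Pdgfc made up 76.5 ± 0.512% of the summed ligand FPKM in KO and 80.3 ± 1.28% in EV, and Pdgfb 6.95 ± 0.425% in KO and 4.77 ± 0.462% in EV (SD, n = 4 each). The Pdgfb share was at least 6.58% in every KO library and at most 5.39% in every EV library. Pdgfa took 16.1 ± 0.317% in KO and 14.5 ± 1.03% in EV, and Pdgfd under 1% in all 8 libraries. Summed ligand FPKM was 78.7 ± 1.74 in KO and 86.5 ± 1.46 in EV (SD, n = 4 each). The ratio of Pdgfc to Pdgfb FPKM was 11.05 ± 0.709 in KO and 17.0 ± 1.79 in EV (SD, n = 4 each). These shares rest on the same counts as the tests above and were not tested again.

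**Figure D2:**
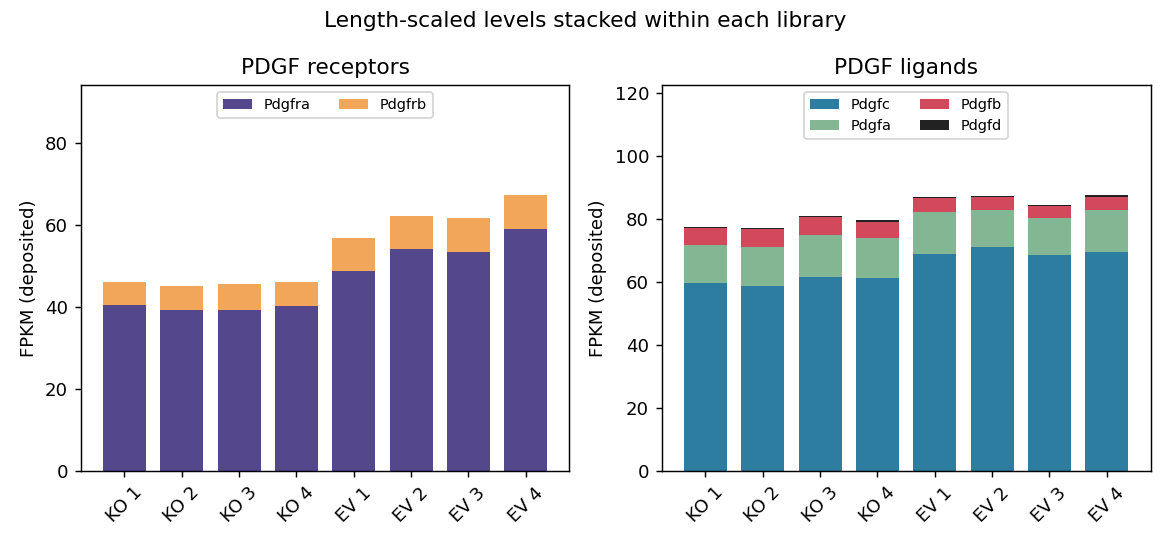
Deposited FPKM of the receptors (left panel) and ligands (right panel), stacked for each library with the 4 KO libraries left of the 4 EV libraries. Receptor stacks average 45.7 FPKM in KO and 62.0 FPKM in EV, with Pdgfra the larger part throughout, and ligand stacks average 78.7 FPKM in KO and 86.5 FPKM in EV, mostly Pdgfc.

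The direction of each called member was the same under all 19 alternatives tried. The log2 fold change ranged from −0.43 to −0.34 for Pdgfra, from −0.48 to −0.41 for Pdgfrb, from −0.21 to −0.14 for Pdgfc and from 0.34 to 0.52 for Pdgfb. Of these, Pdgfra, Pdgfrb and Pdgfb passed the threshold every time. Without KO replicate 1, whose labels disagree, the values were −0.39, −0.41, −0.15 and 0.48 for Pdgfra, Pdgfrb, Pdgfc and Pdgfb.

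**Figure D3:**
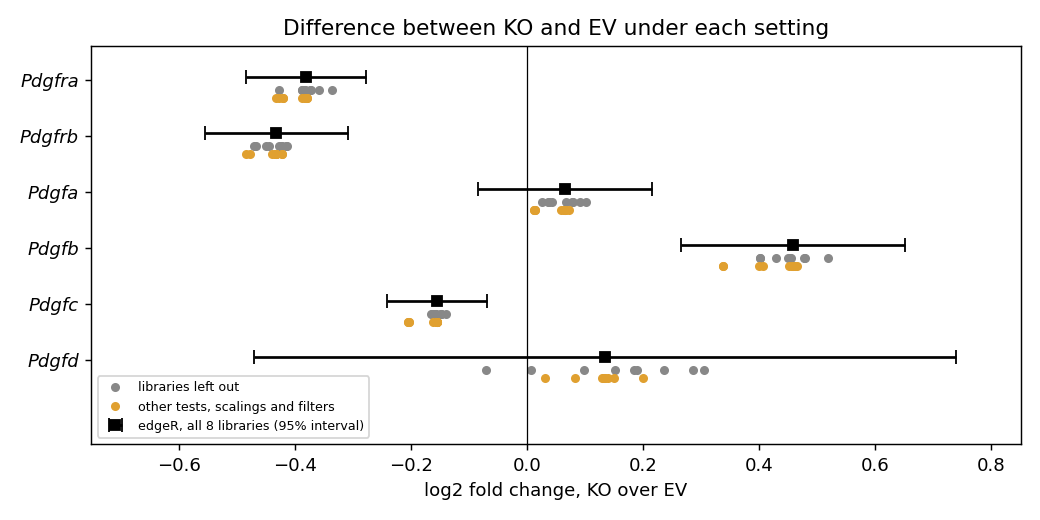
Log2 fold change of KO over EV for each PDGF gene. Squares with bars give the edgeR estimate and its 95% interval over 8 libraries, grey points the fits with libraries left out, and orange points the other tests, scalings and filters. Points of Pdgfra, Pdgfrb and Pdgfc all lie below 0 and those of Pdgfb above 0.

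The members lie on separate chromosomes apart from Pdgfra and Pdgfa. In mm10 coordinates of the deposited table, Pdgfra (ENSMUSG00000029231) spans chromosome 5, 75152291 to 75198204, and Pdgfa (ENSMUSG00000025856) chromosome 5, 138976014 to 138997370. Pdgfb (ENSMUSG00000000489) spans chromosome 15, 79995900 to 80014808, and Pdgfc (ENSMUSG00000028019) chromosome 3, 81036416 to 81214040. Pdgfd (ENSMUSG00000032006) spans chromosome 9, 6168612 to 6378843, and Pdgfrb (ENSMUSG00000024620) chromosome 18, 61045150 to 61085061. GENCODE M21, an annotation of the same build, also has the antisense genes Gm42802, which overlaps Pdgfra, and Gm41361, which overlaps Pdgfb.

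Genes next to the members are set against the 26.0% of all tested genes that were called. Within 500 kb of Pdgfra, 2 genes were tested: Chic2 stood at −0.066 (adjusted p = 0.465), and Kit, the receptor for stem cell factor, rose by 1.30 on the log2 scale (SE 0.344, edgeR adjusted p = 0.00857) at only 1.07 CPM in KO and 0.428 CPM in EV (adjusted p = 0.0883 without KO replicates 2 and 3). Around Pdgfrb, 4 of 14 tested genes rose and 2 fell, among them Synpo, an actin-binding protein, at 0.23 (SE 0.0461) and Hmgxb3 at −0.26 (SE 0.0622). Of 21 tested genes around Pdgfb, 0 rose and 1 fell, Mgat3, a glycosyltransferase, at −0.17 (SE 0.0423). Around Pdgfa 1 of 13 rose, the secreted-protein kinase Fam20c (0.45, SE 0.0710), and 1 fell, the zinc finger gene Zfp68 (−0.39, SE 0.0647). Glrb, the single tested gene near Pdgfc, stood at −0.25 (adjusted p = 0.232), and no gene near Pdgfd was tested.

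**Figure D4:**
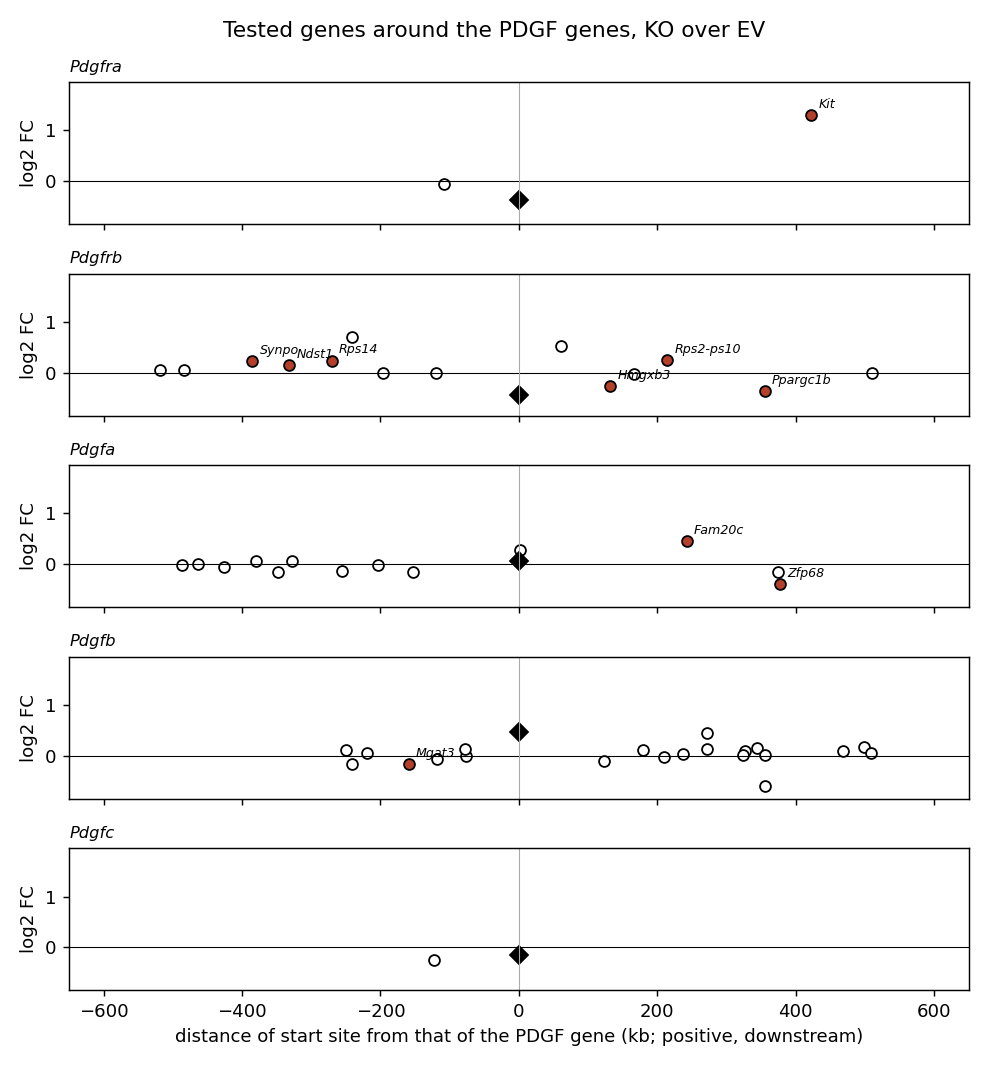
Log2 fold change of KO over EV for tested genes within 500 kb of each PDGF gene, against the distance between start sites in kb. Pdgfd, near which no gene was tested, is not shown. Black diamonds are the PDGF genes, filled circles other genes past the threshold and open circles the rest. Beside Pdgfra only Kit is filled, and it lies above 0 while Pdgfra lies below.

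Start-site windows from RefSeq (GRCm38.p6) are shown for Pdgfra and Pdgfc, which fell together, and beside them for Pdgfa, the PDGFRα ligand that was not called. For Pdgfa it is the more GC-rich of 2 RefSeq windows, both inside the span that the deposited table gives. Each covers 300 bases, most of them before a start site, 5′ to 3′ on the gene's own strand, and capitals mark GC boxes (GGGCGG on either strand).
Pdgfra, chr5:75152001-75152300, plus strand: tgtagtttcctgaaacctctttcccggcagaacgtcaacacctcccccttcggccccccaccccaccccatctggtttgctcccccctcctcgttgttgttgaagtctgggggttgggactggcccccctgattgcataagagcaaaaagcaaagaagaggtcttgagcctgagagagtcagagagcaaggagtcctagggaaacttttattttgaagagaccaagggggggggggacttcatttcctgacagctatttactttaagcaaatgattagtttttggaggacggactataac
Pdgfc, chr3:81036166-81036465, plus strand: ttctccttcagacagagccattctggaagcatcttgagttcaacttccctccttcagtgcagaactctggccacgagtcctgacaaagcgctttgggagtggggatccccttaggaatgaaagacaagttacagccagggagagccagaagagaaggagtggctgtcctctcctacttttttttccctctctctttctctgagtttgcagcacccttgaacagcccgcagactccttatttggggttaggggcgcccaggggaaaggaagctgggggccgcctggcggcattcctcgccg
Pdgfa, chr5:138994895-138995194, minus strand: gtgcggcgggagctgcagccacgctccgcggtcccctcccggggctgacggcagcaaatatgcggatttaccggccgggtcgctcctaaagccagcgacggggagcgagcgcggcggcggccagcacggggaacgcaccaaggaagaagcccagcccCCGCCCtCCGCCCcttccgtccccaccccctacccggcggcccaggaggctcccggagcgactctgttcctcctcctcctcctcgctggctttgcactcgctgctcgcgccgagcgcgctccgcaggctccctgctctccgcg

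The windows of Pdgfra and Pdgfc held no GC box, against 35.7% of 32851 mouse promoters of this length that hold one. That of Pdgfa held 2, side by side. G and C made up 51.0% of the window for Pdgfra, 55.0% for Pdgfc and 73.3% for Pdgfa, where the median over all windows was 52.7%. CpG pairs numbered 5 in Pdgfra, 8 in Pdgfc and 37 in Pdgfa, against a median of 7. The other Pdgfa window had 67.0% G or C, 24 CpG pairs and 1 GC box. That of Pdgfd, also not called, had 56.7% G or C, 8 CpG pairs and no GC box. These features therefore did not divide called from uncalled members among these 4. The called members Pdgfb and Pdgfrb had no window here and were not compared. None of the 3 windows shown held TATAAA (13.6% of promoters), the E-box CACGTG (7.15%), the AP-1 letters TGANTCA (7.81%), the cyclic AMP element TGACGTCA (1.79%) or the EGR1 and WT1 letters GCGGGGGCG (2.91%), each sought on both strands. The Pdgfd window, not shown, held TATAAA in 1 place and none of the other letters. Such a search shows only whether these letters stand in these windows.

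The series title names a microRNA pathway, and published work on epicardial Hdac3 centres on miR-322 and miR-503. Their mature sequences from RefSeq (GRCm38.p6) are shown with that of miR-16, a member of the same family, and capitals mark the seed (bases 2 to 8).
miR-322-5p: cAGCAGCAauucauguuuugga
miR-16-5p: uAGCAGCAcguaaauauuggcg
miR-503-5p: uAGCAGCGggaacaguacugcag

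The seeds of miR-322-5p and miR-16-5p are the same and pair with TGCTGCT, and that of miR-503-5p pairs with CGCTGCT. The longest annotated 3′ UTR of each member (GENCODE M21) was searched for both, on the transcript strand. Lengths were 3115 bases for Pdgfra, 1678 for Pdgfrb, 1462 for Pdgfc, 1408 for Pdgfb, 1203 for Pdgfa and 1942 for Pdgfd. None of the 6 UTRs held either match. Over 21004 protein-coding genes, 20.3% of UTRs held TGCTGCT and 3.94% held CGCTGCT. Among UTRs about as long as that of Pdgfra, TGCTGCT was present in 41.0%. The members that fell therefore have no such 7-base match in these UTRs. Other transcript ends and other kinds of match were not searched, and the search was chosen with the results known.

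Genes around the receptors in the pathway are given next, in the order from ligand to response, from lists chosen for their place in it. Calls in each list stand beside the 12.6% of all tested genes that rose and the 13.4% that fell. Among proteases that activate the ligands, of 6 tested, 0 rose and 1 fell, with a median log2 fold change of −0.062, where the median over all tested genes was 0.0050. The faller was Pcsk5, a proprotein convertase, at only 0.403 CPM in KO and 1.56 CPM in EV (−1.93, SE 0.338, edgeR adjusted p = 0.000274). Plat, tissue plasminogen activator, which cleaves the C chain, stood at 191 ± 4.09 CPM in KO and 200 ± 5.39 CPM in EV (SD, n = 4 each, −0.073, edgeR adjusted p = 0.218). With library totals alone it passed as a fall (−0.12, adjusted p = 0.0359), which made 2 falls among the proteases, and it also passed in limma on FPKM. Furin, which processes the A and B chains, was at −0.074 (adjusted p = 0.353) and Pcsk7 at 0.18 (adjusted p = 0.0556, and 0.0447 without KO replicate 2). Plau, urokinase, averaged 16.8 CPM in KO and 17.5 CPM in EV. St14, encoding matriptase, which activates the D chain, had 0 counts in all libraries.

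Proteins that bind PDGF or its receptors went both ways: of 8 tested, 3 rose and 2 fell (median 0.036). The shares over all tested genes were 12.6% and 13.4%. The co-receptor Nrp1 (0.30, SE 0.0458), the endocytic receptor Lrp1, a partner of PDGFRβ (0.32, SE 0.0515), and Itgb3 rose. Sparc, a matrix protein that binds the B chain, was at 6363 ± 208 CPM in KO and 7386 ± 236 CPM in EV (SD, n = 4 each) and fell (−0.22, SE 0.0395, edgeR adjusted p = 0.000436; 0.115 in limma on FPKM with no filter), as did the transglutaminase Tgm2 (−0.24, SE 0.0475). Cspg4, the proteoglycan NG2, stayed under the filter.

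Of 22 tested adaptors and enzymes that dock on the activated receptors, 4 rose and 2 fell (median 0.027), a share near the 26.0% of all tested genes that were called. The kinase gene Src rose (0.27, SE 0.0514, edgeR adjusted p = 0.000672), as did the transcription factor gene Stat5a (0.38, SE 0.0856), and beside them Stat3 and Grb2. The adaptor Nck2 (−0.22, SE 0.0508; adjusted p = 0.0651 without KO replicates 2 and 3) and the RAS activator Sos2 (−0.34, SE 0.0800) fell. With library totals alone, 2 rose and 4 fell. The phosphatidylinositol 3-kinase subunit Pik3r1 averaged 143 CPM in KO and 145 CPM in EV, and phospholipase Plcg1 125 CPM in KO and 131 CPM in EV.

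Among 14 negative regulators, 1 rose and 2 fell (median −0.038), beside 12.6% and 13.4% of all tested genes. Socs3, a feedback inhibitor of cytokine signalling, was at 61.6 ± 2.57 CPM in KO and 41.3 ± 4.18 CPM in EV (SD, n = 4 each, 0.58, SE 0.0665, edgeR adjusted p = 2.36e-06). The tyrosine phosphatases Ptprj (−0.31, SE 0.0693) and Ptpn2 (−0.25, SE 0.0651), which act on PDGF receptors, fell, Ptpn2 not without KO replicates 2 and 3 (adjusted p = 0.0650). The ubiquitin ligase gene Cblb stood at 0.18 (adjusted p = 0.0622), and passed without EV replicate 4 (0.0101) or KO replicate 3 (0.0183). Of 14 genes of the ERK and AKT kinase cascades, 1 rose and 2 fell (median 0.016), beside the same shares of all tested genes. Braf (−0.25, SE 0.0562) and Mapk3, which encodes ERK1 (−0.18, SE 0.0523), fell, and Akt1 rose (0.17, SE 0.0481). Leaving out 1 library ended the call of Mapk3 (without EV replicate 3 or KO replicate 2; adjusted p = 0.0671 and 0.0554) and of Akt1 (without KO replicate 3; 0.0605). The rise of Akt1 was also lost with library totals alone, which gave 0 rises and 5 falls, and without KO replicates 2 and 3, which gave 0 rises and 1 fall.

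Immediate-early genes, which growth factors induce within the first hours, had 9 members that rose and 2 that fell among 21 tested, with a median log2 fold change of 0.30, beside 12.6% and 13.4% of all tested genes. Egr1, a zinc finger factor, was at 121 ± 10.3 CPM in KO and 71.3 ± 2.81 CPM in EV (SD, n = 4 each), or 0.76 on the log2 scale (SE 0.0582, adjusted p = 1.21e-08 in edgeR). Klf4 (1.19, SE 0.121) and Klf2 (0.76, SE 0.114) rose too, with Junb, Fos, Ier2, Nr4a1, Egr2 and Egr3. Cyr61, a matricellular protein gene (−0.37, SE 0.0576), and the chemokine Ccl2 fell. Myc averaged 18.4 CPM in KO and 18.5 CPM in EV. With 1 library left out, 8 or 9 rose and 2 or 3 fell. These genes answer many stimuli besides PDGF.

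**Figure D5:**
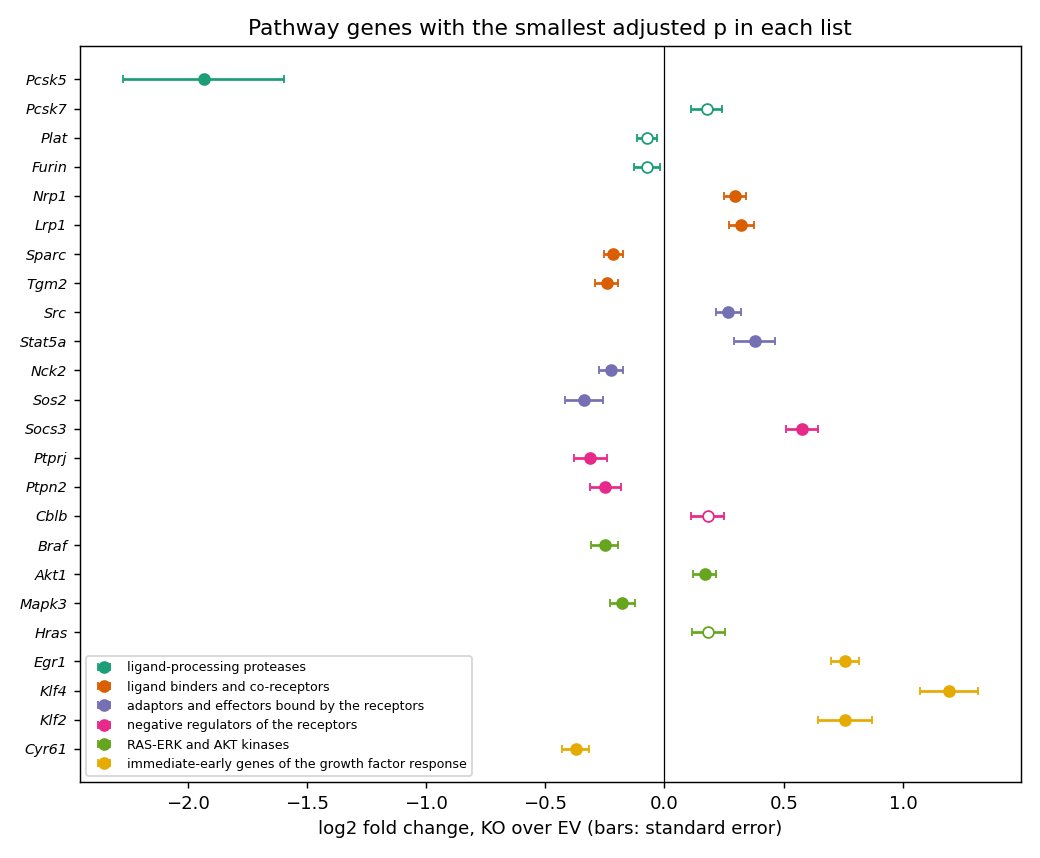
Log2 fold change of KO over EV, with bars for the standard error, of the 4 genes with the smallest adjusted p in each pathway list, filled where they passed the threshold. Egr1, Klf2 and Klf4 lie highest, at 0.76 or above, and Pcsk5 lowest, at −1.93.

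Relatives of the PDGF family, the VEGF, stem cell factor and CSF1 systems, split as well. Of 13 tested, 3 rose and 4 fell (median −0.036), beside 12.6% and 13.4% of all tested genes. Flt4, a receptor of the VEGF family, was at 2.71 ± 0.534 CPM in KO and 14.4 ± 1.12 CPM in EV (SD, n = 4 each, −2.41, SE 0.131), and Kdr fell (−0.58, SE 0.0764), while the ligands Vegfa (0.53, SE 0.0509) and Csf1 (0.36, SE 0.0406) rose. Pdgfrl, the PDGF receptor-like gene, averaged 64.3 CPM in KO and 66.6 CPM in EV and did not pass (−0.046, SE 0.0667, edgeR adjusted p = 0.651).

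The receptors also mark mural cells (Pdgfrb) and fibroblasts (Pdgfra), so other markers of these cells are given beside them. Over all tested genes, 12.6% rose and 13.4% fell. Of 9 tested mural cell markers, 1 rose and 4 fell: Cnn1 (−0.87, SE 0.146), Mcam (−0.39, SE 0.0653), Tagln (−0.29, SE 0.0563) and Notch3 fell, and Anpep rose (1.02, SE 0.188). The pericyte markers Rgs5, Abcc9, Cspg4 and Higd1b and the smooth muscle myosin Myh11 were under the filter. The summed level of the 16 mural markers, mostly Acta2 (not called) and Tagln, was 923 to 1118 CPM in KO libraries and 973 to 1184 CPM in EV libraries. Of 14 tested fibroblast markers, 5 rose and 4 fell. Col1a1 (0.52, SE 0.0428) and Col3a1 (0.35, SE 0.0406), collagens of connective tissue, rose, while Postn (−1.61, SE 0.0986) and the transcription factor Tcf21 (−0.74, SE 0.0845) fell. The summed level of the fibroblast markers, mostly the collagens Col1a1, Col1a2 and Col3a1, was 37269 to 38783 CPM in KO libraries and 28523 to 30809 CPM in EV libraries. Among 13 tested epicardial markers, 4 rose, with Krt18 (0.54), Krt8 (1.66) and Msln (0.44) among them, and 4 fell. The fallers were Wt1, Gata4, Upk3b and Tcf21, and Tcf21 is also counted among the fibroblast markers.

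The endothelial genes Pecam1, Cdh5 and Tie1, the leukocyte gene Ptprc and the platelet genes Pf4 and Ppbp averaged at most 0.152 CPM in either group. Summed endothelial markers, mostly Kdr and Tek, were 19.01 to 21.3 CPM in KO libraries and 24.8 to 28.6 CPM in EV libraries. The 2 that were tested went opposite ways. Kdr fell (−0.58), while Tek rose (0.42, SE 0.137, edgeR adjusted p = 0.0298) from 3.89 CPM in EV to 5.19 CPM in KO. The call of Tek was fragile: it was lost when KO replicate 4 was omitted (0.0712) and under several other alternatives. Summed blood and platelet markers were 9.81 to 11.4 CPM in KO and 6.30 to 7.40 CPM in EV, mostly Cd68 (0.73, SE 0.126), a lysosomal gene, with Laptm5 at 0 counts. Cardiomyocyte markers summed to 111 to 128 CPM in KO and 144 to 155 CPM in EV, nearly all of it Tnnt2 (−0.33, SE 0.0500), with Nppa at 0 counts. Most of the others went the other way at low levels: of 7 with counts, 5 had the higher mean in KO. Among these, Myh6 averaged 2.30 CPM in KO and 0.968 CPM in EV (1.21, SE 0.464, edgeR adjusted p = 0.0611). It passed in limma-voom (adjusted p = 0.0157) and without EV replicate 4 (0.00309) or KO replicate 4 (0.0442), though its groups overlapped. Myh7, under the filter, was lower in KO, at 0.113 CPM against 1.17 CPM in EV, and its groups did not overlap. Liver markers were low but higher in KO, with all 11 higher by their means. They summed to 14.3, 25.2, 22.9 and 11.1 CPM in KO replicates 1 to 4 and to 4.89 to 7.67 CPM in EV libraries, and Alb (1.80, SE 0.277), Apob (1.74, SE 0.239) and Apoa2 rose, Apoa2 not without EV replicate 3 (adjusted p = 0.0528) or KO replicate 3 (0.0689). Without KO replicates 2 and 3, chosen after these sums were seen, Pdgfra was at −0.36, Pdgfrb at −0.47 and Pdgfb at 0.40. The part of these other cells' markers in the differences was not tested.

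Over the 8 libraries, the genes whose log2 CPM followed each called member most closely were found among 10208 others with a mean of at least 5 CPM. The group difference is part of each correlation, and the libraries are shared, so the values are descriptions. For Pdgfra these were Vprbp (r = 0.994), Haus3 (r = 0.991) and Arhgap18 (r = 0.990), and for Pdgfrb Map3k9 (r = 0.992), Accs (r = 0.991) and Cers4 (r = 0.990). For Pdgfc they were Cdc25c (r = 0.991), Slc40a1 (r = 0.989) and Mcam (r = 0.984), and for Pdgfb Tmtc4 (r = 0.987), Actn4 (r = 0.976) and Synpo (r = 0.971). Between Pdgfra and Pdgfrb r was 0.931, between Pdgfrb and Pdgfc 0.955 and between Pdgfra and Pdgfc 0.902. Pdgfb had a negative r with Pdgfra (−0.937), Pdgfrb (−0.916) and Pdgfc (−0.889).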

How the data were processed

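The titles of all 8 libraries name them as mRNA-seq. The authors deposited raw counts per gene and FPKM values for 35275 genes, with coordinates and gene lengths. Per the submitters' processing notes the build was mm10 and DESeq 1.6.3 was used; aligner, counter, annotation release and strandedness are unknown, as the sources used here do not give them. The deposited FPKM values equal counts over gene length and column total in 100% of nonzero values (tolerance 1e-06).

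Counts were tested with edgeR 4.0.16 (R 4.3.3): TMM, filterByExpr (minimum count 10, minimum total 15), quasi-likelihood F test, two-sided, Benjamini-Hochberg over 12801 genes, threshold 0.05. SE is the log2 fold change over the square root of F. The method was tested on simulated counts. Exact permutation tests used 70 arrangements. Log2 CPM used a prior count of 3. Alternatives were DESeq2 1.42.0, limma 3.58.1 (voom, and log2(FPKM + 1) or log2(FPKM + 0.1), with FPKM of at least 0.5 in 4 libraries or unfiltered), other scalings and filters, a replicate block and each library left out.

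Named genes were the members, up to 4 genes per list and 2 per neighbourhood with the smallest adjusted p, and 3 per called member by correlation; other list genes are named as examples, and 1 listed gene is not reported here. The members and lists were chosen with earlier results of these data known. Counting error alone sets the limit of 3 counts.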

Additional observations from a re-analysis of the deposited data

Results flagged for a closer look

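In 8 of 150 groups of 4 libraries, over the PDGF genes and the genes named by rule, 1 library stood apart from the other 3 by Dixon's criterion, where chance flags about 1 group in 20. Among PDGF genes this was Pdgfc, at 244 CPM in EV replicate 2 against 239.0 to 239.5 CPM in the other EV libraries, a gap of about 2% in a group that was nearly level. Among the other genes, KO replicate 2 stood apart for Braf (60.1 CPM, others 52.6 to 53.4), Apob (4.60 CPM, others 2.85 to 2.95) and Actn4 (536 CPM, others 528 to 529). KO replicate 3 stood apart for Anpep (5.17 CPM, others 3.45 to 3.53) and Map3k9 (11.7 CPM, others 10.6 to 10.7). In EV, replicate 2 was low for Flt4 (12.7 CPM, others 14.8 to 14.997) and replicate 1 high for Synpo (220 CPM, others 196 to 200).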

How the results depend on the processing

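Over 112 refits of the 6 PDGF genes under 19 alternatives, 110 kept direction and side of the threshold. The exceptions were Pdgfc without KO replicates 2 and 3 (−0.15, adjusted p = 0.0616) and Pdgfd without EV replicate 1 (−0.071, with a range of −0.071 to 0.30 over single omissions); fewer libraries entered both fits. Under the same pair of omissions, chosen after the data were seen, 1974 genes passed over the whole table, against 3324. Hdac3, which did not pass, turned sign without EV replicate 3 (0.012), KO replicate 2 (0.032) or both KO replicates 2 and 3 (0.024), with a range of −0.023 to 0.032 over single omissions; the cause was not tested. With FPKM filtered at 0.5, Pdgfd gave no value. Deviations of same-numbered KO and EV libraries from their group means had r of 0.124, −0.034, 0.063 and 0.091 for replicates 1 to 4. Differently numbered libraries had r between −0.114 and 0.063. These values do not settle whether the numbers mark pairs, and the main test took none. With the replicate block, 3737 genes passed and Pdgfra stood at −0.38, Pdgfrb at −0.43, Pdgfc at −0.15 and Pdgfb at 0.46, with no call changed among the PDGF genes. Depth limits Pdgfd, with 10 to 36 counts per library.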
